A study of Mus musculus with 18 samples.

Results

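The non-basal epithelial cells of the mouse trachea were set against the ciliated-enriched airway cells of the mouse lung. The comparison took 6 of the 18 RNA-seq libraries of the series, chosen by the sample titles alone: 3 tracheal libraries (mice 1, 2 and 3) and 3 lung libraries (mice 4, 5 and 6). All mice were untreated C57BL/6 animals; the labels give no age or sex, and the study's methods give its C57/Bl6 mice as males aged 8 to 12 weeks. The tracheal cells were the NGFR-negative part of epithelial sheets peeled off with dispase; the sources state no further gate on them. The lung cells were EpCAM+ CD104+ CD24hi cells, and the EpCAM+ CD104+ CD24lo cells sorted from the same lungs, which are enriched for club cells, served as a second lung airway population. The other libraries held tracheal basal cells of mice 1 to 3 and EpCAM-negative and alveolar cells of mice 4 to 6. Organ, mouse and dissociation changed together, so that their parts cannot be told apart, and a library of one organ had no partner from the same animal in the other.

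The surface airway epithelium is built from basal stem cells, secretory (club and goblet) cells that release antimicrobial proteins and mucins, and multiciliated cells whose beating cilia move the mucus. Rarer cells lie between them, among them tuft cells, which sense chemicals, neuroendocrine cells and ionocytes. A multiciliated cell forms when geminin-family regulators (*Gmnc*, then *Mcidas*) switch on centriole amplification and the transcription factors of the *Foxj1*, *Rfx*, *Myb* and *Trp73* families, which in turn drive the genes of the motile axoneme: dynein arm motors, radial spokes, the central pair and the proteins inside the doublet microtubules. Intraflagellar transport particles then carry parts along the growing cilium. In mouse, basal cells line the trachea and the main bronchi and are largely missing from the smaller airways of the lung.

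The tracheal libraries held 31867557, 30474913 and 32993621 counted reads and the CD24hi libraries 12070383, 12052523 and 11382205. Levels are given below as RPKM (reads scaled to gene length and to library size with TMM factors) for library 1, 2 and 3 of a group, and differences as log2 fold changes, tracheal non-basal minus lung CD24hi, with their standard error (SE) and adjusted p from edgeR's quasi-likelihood test over 17989 genes. A rise or fall by a number is always on this log2 scale. The labels were set against marker genes. *Foxj1*, which drives the motile cilium programme, was present in every library of both groups and highest in the CD24hi cells, and *Bpifa1*, an antimicrobial protein of the upper airways, took 14.1%, 14.1% and 13.9% of all counted tracheal reads. *Epcam*, part of the lung gate, was 126, 107 and 112 RPKM in the tracheal libraries and 113, 129.7 and 121 RPKM in the CD24hi libraries, and the difference did not pass the test (log2 fold change -0.07, SE 0.08, adjusted p = 0.436). *Cd24a*, which set the lung gate, was 400.4, 411 and 349.8 RPKM in the tracheal libraries and 794, 1199 and 1317 RPKM in the CD24hi libraries, while *Ngfr*, against which the tracheal cells were selected, was still 4.18, 3.12 and 4.68 RPKM there, beside a mean of 39.7 RPKM in the tracheal basal cells. Some libraries stood apart. The first tracheal library carried 24 *Xist* reads and reads of Y-linked genes (1739 of *Eif2s3y*, 2023 of *Ddx3y*), whereas libraries 2 and 3 held 17416 and 18742 *Xist* reads and at most 2 reads of either Y-linked gene; the 3 CD24hi libraries had at most 9 *Xist* reads and 289 to 1023 *Ddx3y* reads. The reads of tracheal libraries 2 and 3 go against the stated sex, and those of tracheal library 1 and the lung libraries do not. With the tracheal library of mouse 1 alone, 4552 genes were higher and 5415 lower, all 94 tested motile cilium genes stayed lower and their median log2 fold change was -4.27. In the first CD24hi library the endothelial marker list took 0.131% of reads, against 0.0598% and 0.0369% in the others.

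The 2 populations differed at most genes. Of 17989 genes tested, 5659 (31.5%) were higher and 6640 (36.9%) lower in the tracheal cells, so that 68.4% were called in either direction; the median log2 fold change over all genes was -0.08. The RPKM values of the 2 groups did not overlap at 69.4% of genes. A difference above 2-fold was reached by 2893 genes (16.1%) upwards and 4376 (24.3%) downwards, and a difference above 16-fold by 465 (2.58%) and 939 (5.22%). The split depended on the scaling. With library size alone it was 4192 higher to 8153 lower, 34.0% of calls higher in place of 46.0%, and the median of all genes moved to -0.34. With libraries scaled to equal counts of the motile cilium genes it was 15757 to 544, 96.7% higher, with the median at 3.68. All directions below are relative to TMM scaling, and those genes that turn relative to the motile cilium genes are listed at the end. Of the genes lower in the trachea, 3605 (54.3%) had their highest mean in the CD24hi cells, 1660 (25.0%) in EpCAM-negative lung cells and 919 (13.8%) in alveolar cells; without the last 2 classes, 4061 genes were lower. Of the genes higher in the trachea, 1947 were highest in tracheal basal cells, 1595 in the non-basal cells and 1101 in EpCAM-negative lung cells.

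All tested genes of the motile cilium were lower in the trachea, and the sequences just before a transcript start of some of them are shown here first. Regulatory factor X (RFX) proteins, a family used by many ciliary genes, bind X-boxes, whose core element is GTTGCC. In the RefSeq promoter table (GRCm38.p6), 22 of the 77 motile cilium genes with an entry (28.6%) held GTTGCC on either strand within 250 bases before the first transcript start the table lists for the gene, against 1436 of 13355 tested genes (10.8%). Intraflagellar transport genes held it in 6 of 19 (31.6%), antimicrobial secretion genes in 1 of 24 (4.17%). The forkhead element TGTTTAC, which does not overlap it in sequence, stood on either strand in 4 of 77 motile cilium genes (5.19%) against 2.36% of tested genes. A match is a description of the letters, not a bound site. Below are the last 120 bases before that transcript start of 4 axonemal genes, and of *Bpifa1*, which moved in the opposite direction. The genes were chosen by name and do not represent the list. All 4 axonemal windows hold GTTGCC or its reverse complement, which most of the 77 motile cilium genes lack within 250 bases. The transcript start is the gene's outermost start for *Tekt2* and *Bpifa1* and lies 560, 9 and 58 bases inside the gene for *Tekt1*, *Hydin* and *Drc1*, so that the *Tekt1* window lies wholly within the gene and those of *Hydin* and *Drc1* in part; capitals mark GTTGCC or its reverse complement GGCAAC. In order, the windows are chr11:72361883-72362002 (- strand), chr4:126325689-126325808 (- strand), chr8:110266857-110266976 (+ strand), chr5:30281273-30281392 (+ strand) and chr2:154142760-154142879 (+ strand), each written 5′ to 3′ on the gene's own strand.
Tekt1: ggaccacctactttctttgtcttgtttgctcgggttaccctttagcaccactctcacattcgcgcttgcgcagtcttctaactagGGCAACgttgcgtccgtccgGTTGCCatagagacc
Tekt2: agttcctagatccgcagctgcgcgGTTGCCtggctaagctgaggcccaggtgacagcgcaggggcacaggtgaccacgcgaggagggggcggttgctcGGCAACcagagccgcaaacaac
Hydin: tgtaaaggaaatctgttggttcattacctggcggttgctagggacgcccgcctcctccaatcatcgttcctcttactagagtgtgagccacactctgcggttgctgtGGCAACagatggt
Drc1: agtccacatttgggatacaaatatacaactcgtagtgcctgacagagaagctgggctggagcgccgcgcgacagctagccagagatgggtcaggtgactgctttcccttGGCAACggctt
Bpifa1: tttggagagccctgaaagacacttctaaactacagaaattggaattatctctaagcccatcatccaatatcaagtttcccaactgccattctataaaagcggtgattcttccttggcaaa
*Tekt1* and *Tekt2*, tektins of the doublet microtubule, each held the element on either strand: that of *Tekt1* began 35 and 15 bases before the transcript start and that of *Tekt2* 96 and 22 bases before it. *Hydin*, of the central pair, and *Drc1*, of the nexin link, held it on the reverse strand 13 and 11 bases before the transcript start. The *Bpifa1* window held none.

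*Foxj1* (chromosome 11, 116330704 to 116335499, GRCm38) was 31.7, 53.8 and 42.9 RPKM in the tracheal libraries and 698, 591 and 588 RPKM in the CD24hi libraries, and 108, 51.5 and 52.6 RPKM in CD24lo cells. All 3 tracheal libraries lay below all CD24hi libraries (log2 fold change -3.87, SE 0.29, adjusted p = 2.07e-09). *Trp73*, which acts upstream of multiciliogenesis, fell further, from 43.1, 36.8 and 36.5 to 1.25, 1.71 and 1.28 RPKM (log2 fold change -4.78), and *Ccdc78*, of the deuterosome, by a like amount (-4.79). *Rfx2*, *Rfx3* and *Myb* fell less, with log2 fold changes of -2.35, -2.46 and -2.18. Against CD24lo cells, which share the tracheal libraries with the first comparison, the same 3 genes did not pass the test (0.05, -0.33 and 0.03). In a mixed sort, fewer ciliated cells and less RNA of a gene per ciliated cell cannot be told apart; this holds for every level below.

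The geminin-family regulators *Gmnc* and *Mcidas* went the other way. *Gmnc* (chromosome 16, 26957235 to 26991675), which starts the multiciliated fate, was 4.25, 5.12 and 6.27 RPKM in the tracheal libraries and 0.425, 0.635 and 0.790 RPKM in the CD24hi libraries (log2 fold change 3.08, SE 0.22, adjusted p = 1.20e-09), with no overlap. *Mcidas*, which acts just after it, was 2.87, 4.48 and 4.50 RPKM in the tracheal libraries and 1.38, 2.11 and 1.87 RPKM in the CD24hi libraries (log2 fold change 1.14, SE 0.29, adjusted p = 0.00261). In CD24lo cells *Gmnc* was 5.30, 6.44 and 7.78 RPKM, and neither gene differed from those cells by the test (-0.32 and 0.03). *Plk4*, the kinase that starts centriole duplication, was 2.82, 3.78 and 3.90 RPKM in the tracheal libraries and 0.787, 1.75 and 1.55 RPKM in the CD24hi libraries (log2 fold change 1.36, SE 0.21, adjusted p = 1.55e-05), and *Cep152*, which recruits it, rose by 0.97. For each 100 RPKM of *Foxj1* there were 13.4, 9.52 and 14.6 RPKM of *Gmnc* in the tracheal libraries, 0.0609, 0.107 and 0.134 in CD24hi and 4.92, 12.5 and 14.8 in CD24lo libraries. The tracheal and CD24hi ratios did not overlap, which follows from both genes separating the groups in opposite directions. A 2-sided exact permutation test therefore gave p = 0.1, the smallest p that 3 against 3 allows. It adds nothing to the results of the single genes. Each ratio of this kind that was tested gave the same p. The listed fate regulators were higher in 4 and lower in 13 of 20 tested cases, with a median of -0.68. All genes gave 31.5% higher and 36.9% lower, so that the share of rises lay below the background. Relative to the motile cilium genes themselves, 17 fate regulators were higher and 2 lower. *Mcidas* lost its call with the tracheal library of mouse 1 alone (log2 fold change 0.68, adjusted p = 0.171), a fit that leaves out the other two. *Plk4* is also a cell cycle gene, and the cell cycle list, given further on, moved in the same direction; its part in the rise of *Plk4* was not tested.

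**Figure D1:**
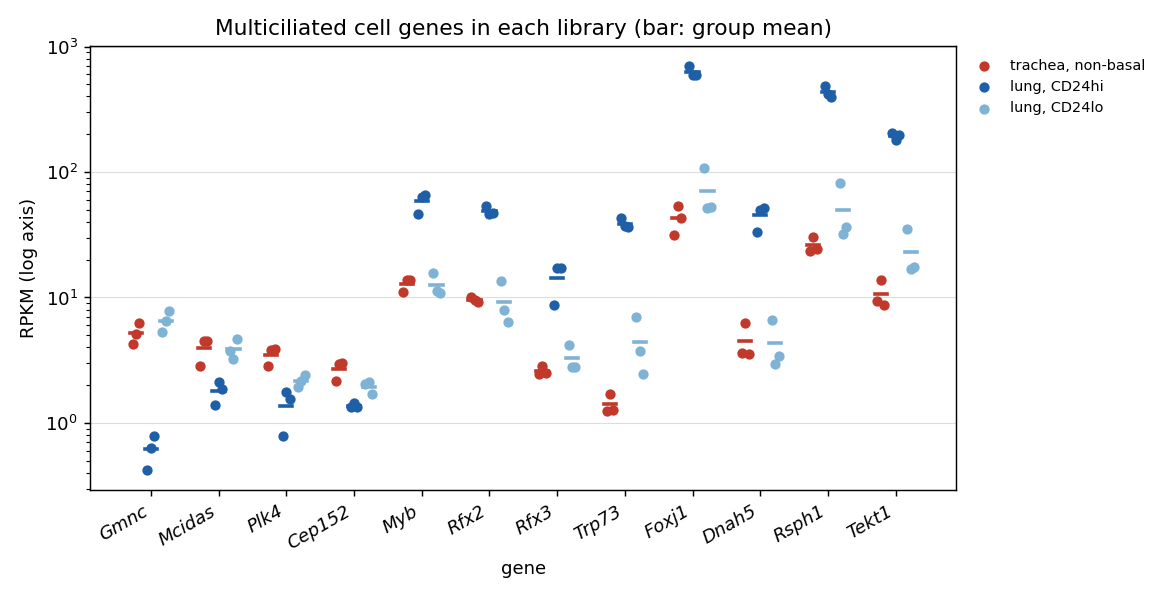
RPKM on a log axis of 12 genes of the multiciliated cell in each library of the tracheal non-basal, lung CD24hi and lung CD24lo cells, points being libraries and bars group means (3 libraries a group). *Gmnc*, *Mcidas*, *Plk4* and *Cep152* lie higher in the trachea than in the CD24hi cells, and from *Myb* to *Tekt1* every tracheal library lies below every CD24hi library.

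Structural genes of the motile axoneme fell as a block. Of 96 listed genes of dynein arms, dynein assembly, nexin link and radial spokes, central pair and doublet microtubules, 94 were tested and all 94 were lower in the trachea, with a median log2 fold change of -4.05, or 16.5-fold; the background of genes lower was 36.9%, and with libraries scaled to these genes' own summed counts 25 were lower. The middle of the list spanned a narrow range: its quartiles lay at -4.33 and -3.71, and 81 of the 94 lay within 1 log2 unit of the median. The part lists had medians of -4.01 (23 dynein arm genes), -3.62 (11 assembly factors), -4.04 (20 nexin link and spoke genes), -4.07 (15 central pair genes) and -4.20 (25 doublet genes). *Rsph1*, a radial spoke head protein, was 23.5, 30.3 and 24.3 RPKM in the tracheal libraries and 486, 420 and 394 RPKM in the CD24hi libraries (log2 fold change -4.06, SE 0.29, adjusted p = 1.07e-09). *Dnah5*, the outer arm heavy chain, was 3.59, 6.29 and 3.57 RPKM in the tracheal libraries and 33.3, 49.96 and 52.0 RPKM in the CD24hi libraries (log2 fold change -3.33). *Tekt1* was 9.31, 13.7 and 8.69 RPKM in the tracheal libraries and 205, 181 and 198 RPKM in the CD24hi libraries, *Hydin* 1.60, 2.66 and 1.498 RPKM in the tracheal libraries and 35.9, 35.6 and 36.8 RPKM in the CD24hi libraries, and *Drc1* 6.27, 9.05 and 4.73 RPKM in the tracheal libraries and 187, 171 and 183 RPKM in the CD24hi libraries; their groups did not overlap. Together, the motile genes took 0.188%, 0.255% and 0.179% of tracheal reads, 3.42%, 3.46% and 3.35% of CD24hi reads and 0.560%, 0.230% and 0.231% of CD24lo reads, so that the first CD24lo library stood above the others. The tracheal level of a motile gene had a median of 6.05% of its CD24hi level and the CD24lo level 10.9%. The same genes in tracheal basal cells had a median of 0.432%. Against CD24lo cells, 65 motile genes were lower and 1 was higher in the trachea (backgrounds 27.8% and 25.3%), with a median of -0.91. Only 42 of the 94 had every tracheal library below every CD24lo library. The motile read shares of CD24lo libraries 2 and 3 lay within the tracheal range, and the CD24lo means above include the higher first library.

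A few motile genes departed from the block. Farthest below its median were *Tekt2* (-5.55), *Dnah11*, an outer arm heavy chain (-5.16), *Cfap53* (-5.11), *Cfap46*, of the central pair (-4.97), and *Dnah7a*, an inner arm heavy chain (-4.89). *Tekt2* was 0.730, 0.846 and 0.654 RPKM in the tracheal libraries and 35.2, 34.1 and 35.5 RPKM in the CD24hi libraries. Farthest above it were *Tubb4b*, a tubulin also used outside cilia (-1.54), the cytoplasmic assembly factor *Dnaaf2* (-2.06), *Rsph3a* (-2.18), the dynein light chain *Dnal1* (-2.33) and *Cfap20* (-2.40). Tracheal basal cells held a mean of 207 RPKM for *Tubb4b* and 26.5 RPKM for *Cfap20*, where *Dnah7a* was 0.00917 RPKM. Reads of *Dnah7a* and *Rsph3a*, which have close paralogues, may be shared among copies. Intraflagellar transport genes, needed by primary cilia as well, fell less. Of 23 genes, 22 were lower and 1 higher, with a median of -2.41, where 36.9% of all genes were lower. Relative to the motile genes, 0 transport genes were lower. *Traf3ip1*, of the transport particle, was 13.5, 18.01 and 14.6 RPKM in the tracheal libraries and 198, 195 and 189.8 RPKM in the CD24hi libraries (log2 fold change -3.66, SE 0.21, adjusted p = 6.90e-11), and *Ift88* fell by 2.69 on the log2 scale. The exception was *Ttc21b*, of the retrograde particle, which rose slightly, from 4.05, 4.08 and 4.66 to 6.41, 6.23 and 6.49 RPKM (log2 fold change 0.58, SE 0.09, adjusted p = 1.89e-05).

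**Figure D2:**
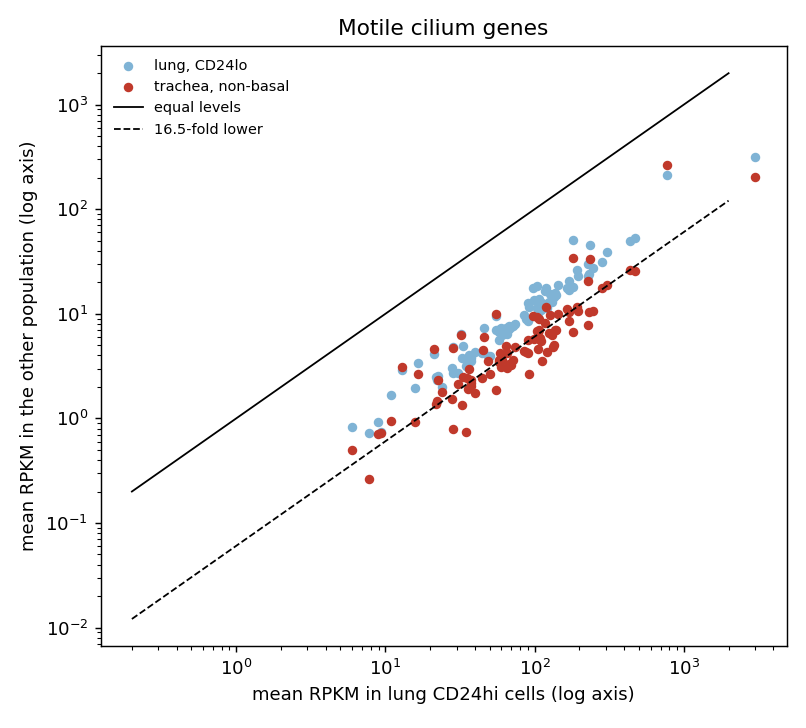
Mean RPKM of the motile cilium genes in lung CD24hi cells (horizontal) against tracheal non-basal cells and lung CD24lo cells (vertical), both on log axes, a point being a gene; the solid line marks equal levels and the dashed line a level 16.5-fold lower. All points lie below the solid line. By fitted log2 fold change, 81 of the 94 genes lie within 1 log2 unit of the median that the dashed line marks. *Tubb4b* (-1.54) lies farthest above it and *Tekt2* (-5.55) farthest below.

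Secreted defence proteins were mostly higher in the trachea and took 18.5%, 17.9% and 17.6% of its reads, against 0.458%, 0.280% and 0.357% of CD24hi reads. *Bpifa1* (chromosome 2, 154142880 to 154149217) was 138642, 136753 and 134879 RPKM in the tracheal libraries and 1194, 479.8 and 923 RPKM in the CD24hi libraries, and 7774, 8106 and 10883 RPKM in CD24lo cells (log2 fold change 7.30, SE 0.39, adjusted p = 3.10e-11). *Reg3g*, a C-type lectin that kills bacteria, was 16742, 15845 and 15192 RPKM in the tracheal libraries and 132, 65.4 and 131 RPKM in the CD24hi libraries (log2 fold change 7.19, SE 0.31, adjusted p = 2.91e-12). *Ltf*, the iron-binding lactoferrin, rose by 8.13, the lysozyme gene *Lyz2* by 4.49, and *Pigr*, the receptor that carries IgA across the epithelium, by 4.62. *Bpifb1* rose by 3.63 and *Wfdc2* by 1.78. Genes of the antimicrobial list were higher in 12 and lower in 5 of 19 tested cases, with a median of 2.61. All genes gave 31.5% higher and 36.9% lower, so that the share of falls lay below the background. Against CD24lo cells the list split, with 8 genes higher and 8 lower of 19 tested and a median of 0.35 (backgrounds 25.3% and 27.8%). There *Bpifa1*, *Reg3g*, *Ltf*, *Lyz2* and *Pigr* were higher too, by 3.94, 3.67, 4.39, 2.52 and 1.58 on the log2 scale, whereas *Bpifb1* (0.37) and *Wfdc2* (0.35) did not pass the test.

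The secretoglobins, small secreted proteins of club cells, split. *Scgb1a1* (chromosome 19, 9083642 to 9087956), the defining club cell product, was 63181, 56535 and 60838 RPKM in the tracheal libraries and 90698, 69141 and 74847 RPKM in the CD24hi libraries, and the difference did not pass the test (log2 fold change -0.38, SE 0.24, adjusted p = 0.167); with library size alone it did (-0.64, adjusted p = 0.0183). In CD24lo cells *Scgb1a1* was 471792, 658337 and 665687 RPKM, or 21.5%, 26.8% and 27.6% of all counted reads, far above both. *Scgb3a1* was 16479, 19670.5 and 18834 RPKM in the tracheal libraries and 840.2, 376 and 601 RPKM in the CD24hi libraries (log2 fold change 4.92, SE 0.28, adjusted p = 6.74e-11) and *Scgb3a2* rose by 3.63. *Scgb1c1* went the other way, at 0.156, 0.321 and 0.298 RPKM in the trachea, 17.6, 11.9 and 10.8 in CD24hi and 76.3, 86.1 and 110.1 in CD24lo cells (log2 fold change -5.62, SE 0.31, adjusted p = 4.16e-11). Relative to *Scgb1a1*, *Bpifa1* stood at 2.19, 2.42 and 2.22 RPKM for each RPKM of *Scgb1a1* in the tracheal libraries. In CD24hi libraries that ratio was 0.0132, 0.00694 and 0.0123, and in CD24lo libraries 0.0165, 0.0123 and 0.0163. The tracheal ratios did not overlap those of either lung gate, and the ratio of *Scgb3a1* to *Scgb1a1* separated the groups in the same direction.

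Mucin and goblet cell genes were higher in 16 and lower in 2 of 18 tested cases, with a median of 3.72. Compared with CD24lo cells, 12 of them were higher and 2 lower, with a median of 1.49. *Muc5b*, the main gel-forming mucin of the mouse airway at rest, was 225, 281 and 297 RPKM in the tracheal libraries and 8.44, 5.34 and 5.99 RPKM in the CD24hi libraries (log2 fold change 5.34, SE 0.30, adjusted p = 5.45e-11), and the membrane mucin *Muc16* was 208, 193 and 184 RPKM in the tracheal libraries and 1.10, 0.502 and 0.686 RPKM in the CD24hi libraries (log2 fold change 7.99, SE 0.21, adjusted p = 1.98e-14). *Agr2*, which folds mucins, rose by 5.95, *Fcgbp* by 7.34, the lectin *Itln1* by 8.08 and the goblet cell transcription factor *Spdef* by 3.97. *Agr3*, which in airways marks ciliated cells, fell by 3.55 on the log2 scale. Enzymes that handle foreign chemicals, abundant in club cells, were higher in 19 and lower in 5 of 29 tested cases, with a median of 1.503. All genes gave 31.5% higher and 36.9% lower. Against CD24lo cells the enzyme list split, with 12 genes higher and 10 lower and a median of 0.30. *Cyp2a5* was 3748, 3076 and 3091 RPKM in the tracheal libraries and 93.6, 71.4 and 74.0 RPKM in the CD24hi libraries (log2 fold change 5.37, SE 0.22, adjusted p = 2.10e-12), *Cyp2f2*, a club cell cytochrome, rose by 2.30, *Gsto1* by 4.90 and the retinol-oxidising *Adh7* by 6.37. *Cbr2* did not pass the test and its libraries overlapped (0.04), and the cytochrome *Cyp2s1* fell, being 22.5, 27.0 and 23.0 RPKM in the tracheal libraries and 1258, 1083 and 1082 RPKM in the CD24hi libraries (log2 fold change -5.56, SE 0.30, adjusted p = 4.63e-11).

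**Figure D3:**
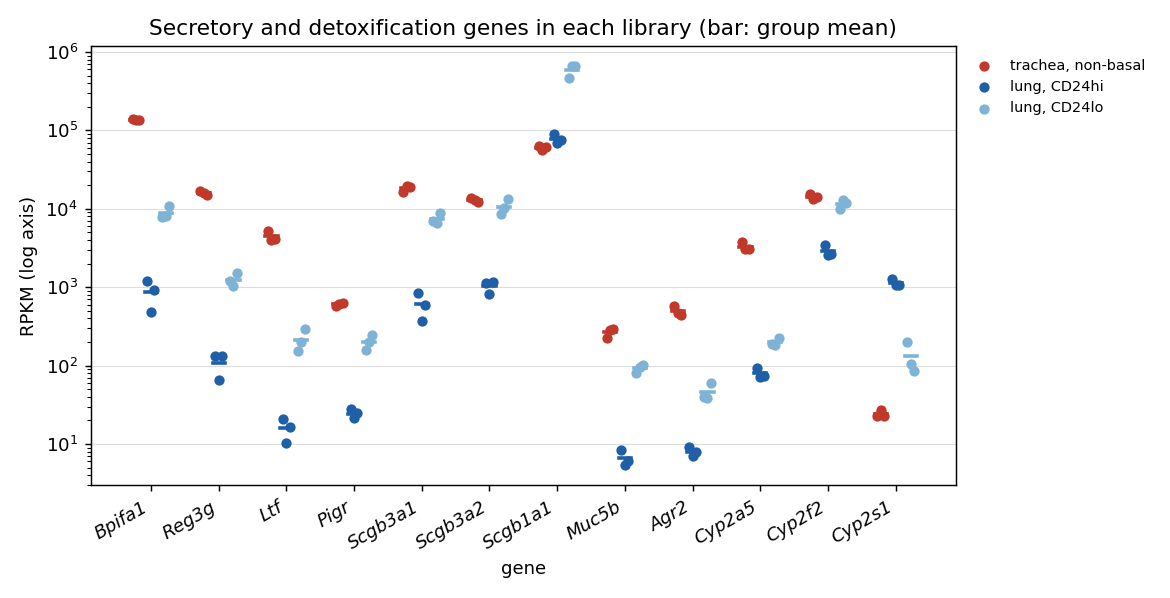
RPKM on a log axis of 12 secretory and detoxification genes in each library of the 3 airway populations, points being libraries and bars group means (3 libraries a group). The tracheal libraries are highest for 9 of the genes, while *Scgb1a1* is highest in CD24lo cells and *Cyp2s1* in CD24hi cells; for *Scgb3a2* a CD24lo library reaches the tracheal range.

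Genes of rare chemosensory and endocrine cells were mostly higher in the trachea than in CD24hi cells. Tuft cell genes were higher in 12 and lower in 0 of 13 tested cases, with a median of 5.40, or 2.57 with genes that had no lung read set at their bound; all 13 were higher than in CD24lo cells. *Gnat3* (chromosome 5, 17962570 to 18019668), the taste G protein gustducin, was 23.3, 16.5 and 15.7 RPKM in the tracheal libraries and 0, 0.0631 and 0.0670 RPKM in the CD24hi libraries. That is 1922 against 2 reads, a ratio of 428 (95% interval 118 to 3539.8); this interval and those like it are exact and cover counting error only. *Trpm5*, the channel of the taste cascade, was 9.61, 6.64 and 6.84 RPKM in the tracheal libraries and 0.0861, 0.304 and 0.126 RPKM in the CD24hi libraries (log2 fold change 5.46, SE 0.30, adjusted p = 4.36e-11), and *Pou2f3*, the factor that specifies tuft cells, rose by 5.78. *Dclk1* rose by 3.31. *Ltc4s*, the leukotriene synthase, did not pass the test against CD24hi cells (log2 fold change -0.35, SE 0.26, adjusted p = 0.245) but did against CD24lo cells (2.33). Neuroendocrine genes were higher in 10 and lower in 2 of 13 tested cases, with a median of 3.85. Compared with CD24lo cells, 8 of them were higher and 1 lower, with a median of 1.02. *Chga*, a secretory granule protein, gave 935 against 2 reads, a ratio of 208 (95% interval 57.5 to 1723). *Uchl1*, often used as a neuroendocrine marker, went the other way, at 4.10, 2.36 and 2.44 RPKM against 25.3, 20.2 and 17.3 (log2 fold change -2.82, SE 0.35, adjusted p = 1.57e-06). Ionocyte genes were higher in 6 and lower in 1 of 9 tested cases, with a median of 2.49, where all genes gave 31.5% higher and 36.9% lower. Against CD24lo cells 4 were higher and 2 lower. The ionocyte list took a mean of 0.0179% of tracheal, 0.00787% of CD24hi and 0.0232% of CD24lo reads. In alveolar libraries it took 0.0402%, 0.0371% and 0.0366%. *Foxi1*, the ionocyte master factor, was 2.16, 1.78 and 2.19 RPKM in the tracheal libraries and 0.0641, 0.0315 and 0 RPKM in the CD24hi libraries and at 0 in all CD24lo libraries; its ratio to the CD24hi cells was 63.3 (95% interval 21.5 to 308). *Ascl3* rose by 2.49 and the chloride channel subunit *Bsnd* by 3.06, from levels under 0.1 RPKM in the lung.

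The NGFR-negative tracheal cells also held more basal and squamous RNA than the CD24hi cells. Basal cell genes were higher in 17 and lower in 5 of 23 tested cases, with a median of 2.56. *Krt5*, the basal keratin, was 126, 103 and 130 RPKM in the tracheal libraries and 3.41, 3.62 and 3.74 RPKM in the CD24hi libraries (log2 fold change 5.06, SE 0.27, adjusted p = 3.60e-11), beside a mean of 1538 RPKM in the sorted basal cells. *Trp63*, the basal master factor, was 8.93, 11.3 and 16.9 RPKM against 0.474, 0.979 and 1.35 (log2 fold change 3.73, SE 0.30, adjusted p = 4.70e-09), and 6.78, 11.9 and 8.57 RPKM in CD24lo cells, from which it did not differ by the test (0.45). *Ngfr* itself rose by 3.67, and the part of basal cells left in the sort was not tested. *Krt14* rose by 4.63 and *Krt15* by 7.005. Hillock and squamous genes, named for stratified patches of the trachea, were higher in 16 and lower in 2 of 21 tested cases. Their median was 3.79 (3.08 with genes without a lung read at their bound). Their counts against CD24lo cells were 16 higher and 3 lower, with a median of 1.66. *Krt4* was 317, 218 and 233 RPKM in the tracheal libraries and 0.142, 0.139 and 0.184 RPKM in the CD24hi libraries (log2 fold change 10.67, SE 0.32, adjusted p = 8.10e-14), and *Krt13* rose by 5.45. The sorted basal cells held more *Krt4*, with a mean of 418 RPKM. The hillock and squamous list took 0.605%, 0.641% and 0.605% of their reads, against 0.432%, 0.349% and 0.349% in the non-basal libraries. Simple keratins and luminal genes split, higher in 8 and lower in 6 of 17 tested cases, with a median of 0.09, near that of all genes (-0.08). *Krt19* rose by 1.59, *Krt23* by 5.16 and the epithelial factor *Ehf* by 3.82. Cell cycle genes were higher in 27 and lower in 0 of 30 tested cases, with a median of 1.47, beside the same shares of all genes. They were higher than in CD24lo cells in 24 cases and lower in 0, with a median of 1.19. The cell cycle list took 0.0392%, 0.0401% and 0.0404% of non-basal reads and 0.0185%, 0.0204% and 0.0189% of CD24hi reads. Its share was larger in the sorted basal cells, at 0.108%, 0.0902% and 0.0887%. *Mki67* was 4.31, 4.34 and 4.36 RPKM in the tracheal libraries and 0.210, 0.551 and 0.226 RPKM in the CD24hi libraries and *Plk1*, a mitotic kinase, 20.8, 22.7 and 23.1 RPKM in the tracheal libraries and 1.10, 0.807 and 0.678 RPKM in the CD24hi libraries; their log2 fold changes were 3.71 and 4.68.

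Hox genes and other developmental factors, whose expression is set by position along the body, differed between the tracheal and the CD24hi cells. Of 39 Hox genes listed, 16 were expressed enough to be tested, of which 10 were higher and 0 lower in the trachea, with a median of 2.80. Against CD24lo cells 8 were higher and 2 lower. The list took 0.0115%, 0.00999% and 0.00966% of tracheal non-basal reads. Its share was larger in EpCAM-negative lung cells, at 0.0311%, 0.0290% and 0.0317%. *Hoxb2* (chromosome 11, 96351632 to 96354020) was 18.5, 14.8 and 14.5 RPKM in the tracheal libraries and 1.34, 0.908 and 0.627 RPKM in the CD24hi libraries (log2 fold change 4.04, SE 0.18, adjusted p = 4.19e-12), and its neighbours *Hoxb3* and *Hoxb4* rose by 4.11 and 2.96. *Hoxc4* had no read in any CD24hi library and was at least 18.4-fold higher in the trachea, against a floor of 3 reads over the 3 libraries. *Hoxa5*, a regulator of lung and trachea formation, overlapped between groups (log2 fold change 0.03, SE 0.35, adjusted p = 0.953). Patterning factors were higher in 15 and lower in 16 of 35 tested cases, with a median of 0.16, where all genes gave 31.5% higher and 36.9% lower. *Sox21*, of the proximal airway, was 44.8, 48.4 and 56.5 RPKM in the tracheal libraries and 0.954, 0.761 and 0.828 RPKM in the CD24hi libraries (log2 fold change 5.88, SE 0.17, adjusted p = 5.20e-14), *Pax9*, a foregut factor, rose by 5.598, and *Pitx1* gave 505 against 2 reads, a ratio of 113 (95% interval 31.0 to 932). The proximal factor *Sox2* and the pioneer factor *Foxa1* rose by 1.12 and 1.52.

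Other patterning factors were lower in the trachea. *Nkx2-1*, which specifies both lung and tracheal epithelium, was 41.3, 41.2 and 41.5 RPKM in the tracheal libraries and 75.3, 63.9 and 65.9 RPKM in the CD24hi libraries (log2 fold change -0.73, SE 0.10, adjusted p = 6.79e-06). *Foxa2* fell more, from 45.5, 43.3 and 41.0 to 9.53, 8.80 and 8.51 RPKM (log2 fold change -2.27, SE 0.09, adjusted p = 1.49e-12), and was at a mean of 0.555 RPKM in tracheal basal cells. *Etv5*, an FGF target of the distal lung, fell by 2.63 on the log2 scale. *Foxf1*, *Tbx4* and *Tbx5*, factors of the lung mesenchyme, fell as well (-7.83, -4.30 and -5.11), but their highest means were in EpCAM-negative lung cells and their CD24hi levels, like the endothelial share, were highest in library 1. *Foxf1* was 19.8, 8.23 and 5.18 RPKM there. Of secreted signals, *Shh* was 0.141, 0.211 and 0.391 RPKM in the tracheal libraries and 10.5, 9.44 and 9.61 RPKM in the CD24hi libraries, and 29.9, 36.4 and 39.5 RPKM in CD24lo cells (log2 fold change -5.29, SE 0.23, adjusted p = 4.17e-12), and *Wnt11* fell from 91.9, 71.3 and 68.7 to 3.17, 3.68 and 2.51 RPKM (log2 fold change -4.63, SE 0.29, adjusted p = 1.84e-10). *Wnt10a* had no CD24hi read and was at least 44.9-fold higher in the trachea, at 1.65, 1.20 and 2.32 RPKM, with a mean of 18.7 RPKM in basal cells. Signals of the Wnt, Shh, Fgf and Bmp families were higher in 12 and lower in 14 of 33 tested cases, with a median of 0.08, shares near the 31.5% and 36.9% of all genes.

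**Figure D4:**
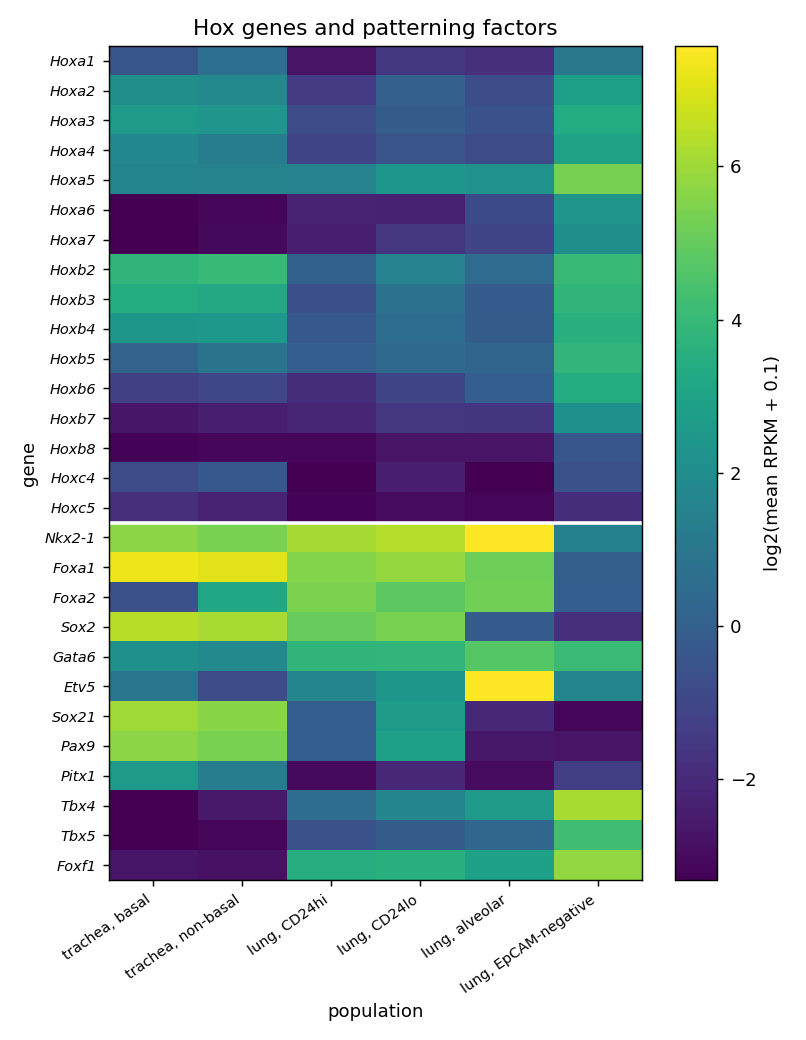
Colour map of log2(mean RPKM + 0.1) of 16 tested Hox genes (above the white line) and 12 patterning factors (below it) in the 6 sorted populations, each a mean of 3 libraries. *Hoxb2* to *Hoxb4*, *Sox21* and *Pax9* are bright in both tracheal populations and dark in CD24hi cells, and *Tbx4*, *Tbx5* and *Foxf1* are brightest in EpCAM-negative lung cells.

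Ion and water transport genes were higher in 14 and lower in 8 of 24 tested cases, with a median of 1.23. All genes gave 31.5% higher and 36.9% lower, so that the share of falls was near the background. Against CD24lo cells 12 were higher and 8 lower, with a median of 0.47. Among the rises, *Slc5a8*, a sodium-coupled monocarboxylate carrier, was 22.3, 24.5 and 24.8 RPKM in the tracheal libraries and 0.0849, 0.208 and 0.280 RPKM in the CD24hi libraries (log2 fold change 6.96, SE 0.25, adjusted p = 3.25e-13), *Kcne3*, a potassium channel subunit, rose by 6.24, the chloride channel *Ano1* by 3.78 and the water channel *Aqp5* by 3.73. The epithelial sodium channel subunits *Scnn1b* and *Scnn1g* fell, *Scnn1b* from 34.6, 20.9 and 25.4 to 3.58, 3.56 and 4.03 RPKM (log2 fold change -2.86, SE 0.19, adjusted p = 3.54e-10); they were highest in CD24lo cells, at 126, 199 and 179.9 RPKM for *Scnn1b*. *Cftr*, the cystic fibrosis chloride channel, was 0.784, 0.797 and 0.883 RPKM in the tracheal libraries and 0.455, 0.540 and 0.586 RPKM in the CD24hi libraries, a small rise (log2 fold change 0.64, SE 0.16, adjusted p = 0.0016), and lower than in CD24lo cells (-1.80). Interferon response genes were higher in 10 and lower in 4 of 18 tested cases, with a median of 1.33; relative to the motile genes 18 were higher. The antiviral genes *Mx1* and *Oas2* rose by 5.02 and 4.65, whereas *Usp18*, which damps the response, was 16.7, 15.7 and 13.8 RPKM in the tracheal libraries and 59.3, 59.9 and 66.3 RPKM in the CD24hi libraries (log2 fold change -2.003, SE 0.22, adjusted p = 3.32e-07).

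Markers of other lung cell types were mostly higher in the lung gate. The labels name no CD31 gate for the CD24hi cells; the study's methods describe a CD45-negative, CD31-negative gate for lung alveolar cells. All 13 endothelial genes were lower in the trachea, with a median of -6.98. *Pecam1* was 0.258, 0.117 and 0.335 RPKM in the tracheal libraries and 52.9, 24.9 and 13.3 RPKM in the CD24hi libraries (log2 fold change -6.98, SE 0.62, adjusted p = 1.96e-08), and *Sox17* had no tracheal read and was at least 295-fold higher in the CD24hi cells. The endothelial list summed to 0.131%, 0.0598% and 0.0369% of CD24hi reads. Stromal genes were higher in 2 and lower in 10 of 13 tested cases, with *Col1a1* at 12.6, 6.28 and 3.39 RPKM in CD24hi and 1.95, 0.530 and 1.61 in tracheal libraries. Alveolar type 2 genes were higher in 2 and lower in 12 of 15 tested cases, with a median of -2.89; relative to the motile genes 5 were lower. *Sftpc*, which defines type 2 cells, was 2.29, 4.76 and 3.08 RPKM in the tracheal libraries and 1830.5, 823 and 855 RPKM in the CD24hi libraries (log2 fold change -8.44, SE 0.46, adjusted p = 4.32e-11), and *Sftpb* fell by 4.80 on the log2 scale. *Sftpd*, a collectin that airway cells make as well, rose, from 253, 182 and 203 to 633, 572 and 533 RPKM (log2 fold change 1.45, SE 0.18, adjusted p = 1.31e-06); *Sftpa1* did not pass the test (0.51, adjusted p = 0.0507). Alveolar type 1 genes were higher in 3 and lower in 11 of 16 tested cases, with *Ager* at 145, 67.3 and 58.9 RPKM in CD24hi and 1.02, 1.10 and 0.927 in tracheal libraries. Leukocyte genes were higher in 4, lower in 2 and not called in 11 of 17 tested cases. Both shares lie below the 31.5% higher and 36.9% lower of all genes. *Ptprc*, which encodes CD45, was 2.46, 1.19 and 1.43 RPKM in the tracheal libraries and 0.706, 1.16 and 1.17 RPKM in the CD24hi libraries. That difference did not pass the test (0.74, adjusted p = 0.148), and the T cell gene *Cd3g* rose by 3.06. Cartilage and smooth muscle genes were higher in 1 and lower in 6 of 11 tested cases, and glial, thyroid and blood genes higher in 1 and lower in 6 of 8 tested cases. What part such cells had in the other results was not tested.

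The largest rises by a rule of size were *Serpinb2*, *Lipf*, *Sult1c1*, *Serpinb11*, *Dmbt1*, *Clca3b*, *Krt4*, *Ugt2b34*, *Eya4*, *Isl1*, *Xist* and *Osr2*, of which 7 were highest in the non-basal and 5 in the basal tracheal cells. *Serpinb2*, a protease inhibitor of squamous epithelia, was 22.8, 24.5 and 28.2 RPKM in the trachea and had no CD24hi read, at least 679-fold higher. *Lipf*, gastric lipase, was uneven at 50.04, 12.1 and 19.8 RPKM and at least 487-fold higher. *Sult1c1*, a sulfotransferase, was 49.5, 68.8 and 63.2 RPKM in the trachea and gave 8096 against 1 reads, a ratio of 3609 (95% interval 648 to 142559). *Dmbt1*, a scavenger receptor of mucosal secretions, was 73.4, 63.8 and 87.2 RPKM in the tracheal libraries and 0.0846, 0 and 0.0126 RPKM in the CD24hi libraries (log2 fold change 11.12, SE 0.42, adjusted p = 4.39e-11). The developmental factors *Osr2*, *Isl1* and *Eya4* were absent or nearly so from the CD24hi libraries. *Osr2* was 69.2, 77.1 and 70.0 RPKM in the tracheal libraries and 0.221, 0.0433 and 0 RPKM in the CD24hi libraries (log2 fold change 9.60, SE 0.28, adjusted p = 7.09e-14). *Xist* rested on tracheal libraries 2 and 3 alone: with the library of mouse 1 alone the log2 fold change was 0.75 (adjusted p = 0.849), and limma voom did not call it with all libraries (adjusted p = 0.451).

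The largest falls were *Cldn18*, *Nos2*, *Car4*, *Abhd12b*, *Sema3g*, *Esm1*, *Cpn2*, *D030018L15Rik*, *Cldn5*, *Cdh5*, *Fendrr* and *Kcnmb4*, of which 6 were highest in CD24hi cells, 5 in EpCAM-negative cells and 1 in alveolar cells. *Cldn18* (chromosome 9, 99690796 to 99717267), a tight junction claudin of lung and stomach, was 0, 0.0113 and 0 RPKM in the tracheal libraries and 115, 113 and 109.7 RPKM in the CD24hi libraries: 1 read against 13876, a ratio of 31129 (95% interval 5586 to 1229620) in favour of the lung. In CD24lo cells it was 45.3, 25.3 and 22.4 RPKM, below the CD24hi level and far above the tracheal one. *Nos2*, the inducible nitric oxide synthase, was 20.3, 17.0 and 16.1 RPKM in CD24hi, 4.22, 2.24 and 0.981 in CD24lo and at most 0.00880 RPKM in tracheal libraries. *Esm1*, known as an endothelial product, was 60.0, 88.9 and 97.0 RPKM in CD24hi libraries, lowest in the library with the highest endothelial share. *Cldn5*, the endothelial claudin, was 83.5, 30.7 and 17.4 RPKM, highest in that library. *Kcnmb4*, a potassium channel subunit, was 0.170, 0.175 and 0 RPKM in the tracheal libraries and 67.4, 55.7 and 52.7 RPKM in the CD24hi libraries.

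Genes on the same side of both lung gates numbered 3225 higher (17.9%) and 3549 lower (19.7%); the comparisons share the tracheal libraries. With the tracheal library of mouse 1 alone, 2126 genes were higher than both. Led by the smaller of the 2 differences, those above both gates were *Serpinb2*, *Serpinb11*, *Dmbt1*, *Lipf*, *Sult1c1*, *Krt4*, *Osr2* and *Isl1*. Those below both were *Cldn18*, *Car4*, *Sema3g*, *Cxcl14*, *Cldn5*, *Cdh5*, *Fendrr* and *Egfl7*, of which 7 were highest in EpCAM-negative lung cells and 1 in alveolar cells. *Dmbt1* stood 11.12 above CD24hi and 8.54 above CD24lo cells, and *Krt4* 10.67 and 7.47. By whole transcriptome, the tracheal non-basal cells lay closest to tracheal basal cells (median absolute difference 0.390 in log2 CPM), then to CD24lo (0.484), alveolar (0.678), CD24hi (0.752) and EpCAM-negative cells (0.835). By Spearman's rho across genes, which are not independent replicates, CD24hi cells (0.854) lay nearer than alveolar cells (0.840), and basal (0.953), CD24lo (0.925) and EpCAM-negative cells (0.724) kept their places.

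**Figure D5:**
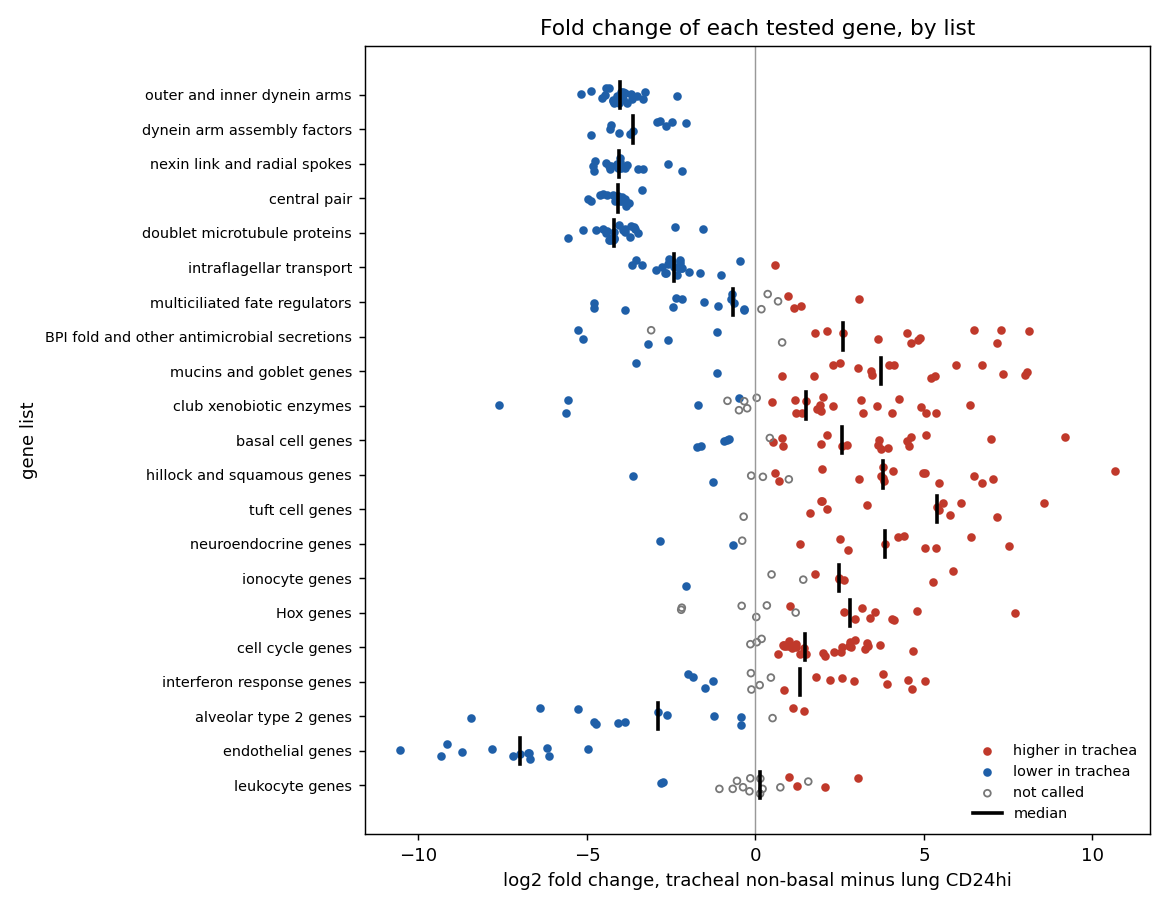
Log2 fold change, tracheal non-basal minus lung CD24hi, of each tested gene in 21 lists, a point being a gene (red, higher; blue, lower; open, not called) and the black bar the list's median. The 5 axonemal lists cluster near -4, the endothelial list lies lowest with a median of -6.98, and the tuft cell list has a fitted median of 5.40. With genes that had no lung read set at their bound its median is 2.57, below the neuroendocrine (3.85), mucin and goblet (3.72) and hillock and squamous (3.08) lists.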

How the data were processed

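RNA-seq was made from sorted cells of mouse trachea and lung, with 3 libraries for each of 6 populations. Per the labels and the study's methods, the authors demultiplexed reads with bcl2fastq 1.8.4, mapped the single-end reads against mm10 by Rsubread and assigned them to Entrez genes with featureCounts and its built-in RefSeq annotation; the deposited values are raw read counts per gene. Strand handling was not given in the sources used here. Of 27179 genes, 17989 reached more than 0.2 CPM in 3 or more of the 18 libraries and were tested (25275 genes carried a symbol). All 18 libraries were fitted with edgeR 4.0.16 in R 4.3.3 with a mean per group, so that all groups shared a spread. The fit used TMM factors, the quasi-likelihood test and Benjamini-Hochberg adjusted p under 0.05. In simulated counts, 100 genes changed 2-fold and 100 changed 4-fold in the tracheal non-basal group alone. The method recovered 92 and 99 of them and called 5 unchanged genes. With so few genes changed, the simulation could not test how the calls depend on scaling. RPKM values used the TMM factors and the gene lengths in the deposited files. Symbols, coordinates and promoter sequences came from RefSeq tables of GRCm38.p6, the assembly behind mm10.

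The members and the 35 gene lists (664 entries, 2 of them without a match) were chosen with earlier results of these data known, so counts over a list are descriptions. Some listed genes were counted but are not reported singly here. Genes named beyond the lists were the 12 largest rises and falls with a mean CPM of at least 10 and no overlap, the 8 farthest above and below both lung gates, and the 5 motile cilium genes farthest from their median on either side. Alternatives used limma 3.58.1 voom, DESeq2 1.42.0, other scalings, filters and library sets. The summed read share of each list was compared by a 2-sided exact permutation test over 3 against 3 libraries, whose smallest p is 0.1; over the 36 lists compared the adjusted value of those at 0.1 was 0.12. Tracheal libraries were deeper, from 30474913 to 32993621 counted reads, than CD24hi libraries, from 11382205 to 12070383, so that low genes were measured with less precision in the lung. Replicates came from separate mice, and no replicate pair agreed within sampling noise.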

Additional observations from a re-analysis of the deposited data

How the results depend on the processing

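Under limma voom with and without mouse as a random effect, DESeq2, RLE factors, library size alone, both other filters, the length correction, thinned tracheal counts and the fits of the compared libraries only, the 4 counts of called genes and the 17 list counts stayed within 1.5 times their values, and no called gene among the 148 named turned direction. Leaving out a library in turn gave 5244 to 5782 genes higher and 6263 to 6501 lower than CD24hi cells, and 2768 to 3481 higher and 2947 to 3596 lower than both gates. Scaling to equal motile cilium counts, which by construction measures change relative to those genes, gave 15757 genes higher and 544 lower, and 7218 and 446 against both gates. Under it the lists held 25 motile cilium genes lower, 17 fate regulators higher and 2 lower, 0 intraflagellar transport genes lower, 5 alveolar type 2 genes lower and 18 interferon genes higher. The log2 fold changes that turned positive under it were *Tubb4b* 2.27, *Dnaaf2* 1.75, *Rsph3a* 1.62, *Dnal1* 1.46, *Cfap20* 1.41, *Rfx2* 1.46, *Rfx3* 1.34, *Myb* 1.62, *Dnah5* 0.42, *Ift88* 1.10, *Traf3ip1* 0.13, *Agr3* 0.21, *Nkx2-1* 3.09, *Foxa2* 1.54, *Etv5* 1.17, *Jag1* 1.48, *Scnn1b* 0.96, *Scnn1g* 2.84, *Uchl1* 1.01, *Col1a1* 1.45, *Usp18* 1.802, *Cd24a* 2.29, *Itgb4* 2.99, *Hsp90aa1* 2.23, *Jag2* 2.09 and *Notch1* 2.48. *Foxj1* was then -0.09 and no longer called. The following were added after seeing the data: with the tracheal library of mouse 1 alone, 2126 genes were higher than both gates and the other counts stayed within 1.5 times, and without genes highest in EpCAM-negative or alveolar cells, 4061 were lower than CD24hi cells. *Sftpa1* (adjusted p = 0.0507) was called by limma voom (adjusted p = 0.0288) and DESeq2 (0.0346), among others. The equal title numbers mark no shared animal, and deviations of equally numbered libraries had correlations of 0.064, 0.031 and -0.053, so the numbers do not pair the samples; with the number as a replicate block 5065 genes were higher and 5540 lower, against 5184 and 5800 for the same libraries without the block. Low genes of the lung libraries were limited by their smaller depth.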

Other observations

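Notch pathway genes, which steer airway cells between secretory and ciliated fates, were higher in 8 and lower in 10 of 23 tested cases, with a median log2 fold change of 0.02; these shares lie near the 31.5% higher and 36.9% lower of all genes. The receptor *Notch2* was 41.1, 45.3 and 44.0 RPKM in the tracheal libraries and 10.1, 11.1 and 10.7 RPKM in the CD24hi libraries (log2 fold change 2.03, SE 0.13, adjusted p = 1.91e-10), and *Notch3* rose by 1.90. The ligands *Jag1* and *Jag2* fell: *Jag1* was 9.34, 12.5 and 12.2 RPKM in the tracheal libraries and 49.4, 58.7 and 61.5 RPKM in the CD24hi libraries (log2 fold change -2.32, SE 0.12, adjusted p = 2.10e-11), and *Jag2* stood at -1.74. *Notch1* fell by 1.35 on the log2 scale.

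Immediate early and heat shock genes, which tissue handling can raise, were higher in 4 and lower in 11 of 24 tested cases, with a median of -0.28, beside the same shares of all genes. The chaperone *Hsp90aa1* fell by 1.56 on the log2 scale and *Klf4* rose by 1.75. MHC class II genes were higher in 0 and lower in 6 of 10 tested cases, with a median of -0.87, where all genes gave 31.5% higher and 36.9% lower. *Itgb4*, which encodes the gated antigen CD104, was 24.1, 24.5 and 30.5 RPKM in the tracheal libraries and 57.0, 45.3 and 39.7 RPKM in the CD24hi libraries (log2 fold change -0.84, SE 0.17, adjusted p = 3.53e-04).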
